A study of Saccharomyces cerevisiae with 64 samples.

Results

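The subtelomeric zones of budding yeast, Saccharomyces cerevisiae, were examined as 1 kb tiles lying within 30 kb of an end of chromosomes I to XVI. Tiles were counted inwards from each end, the left end being coordinate 0 and the right end the largest coordinate of the chromosome in the same table. The 32 ends gave 960 tiles of 12089 nuclear tiles in 3 of the tables, and of 12099 in the table of the double mutant. Of these, 160 tiles formed the outer 5 kb, which hold repeats shared between ends, and 800 lay 5 to 30 kb from an end. A tile was measured where at least 10 of its 20 bins of 50 bp were above 0 in some column of its table. In HU, 675 of the 800 tiles and 70 of the 160 outer tiles were measured, in the time course 690 and 81, in the double mutant 624 and 59, and with RNR3 the measured tiles were 695 and 80.

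Yeast chromosome ends carry telomeric repeats and, inside them, X and Y' elements, which are near-identical between ends. Farther in lie gene families such as COS, PAU, FLO, HXT, MAL and IMA, and the silent mating cassettes HML and HMR. Origins near ends are known for late or inefficient firing, which depends in part on the silencing protein Sir3, on the Ku proteins and on Rif1. Fkh1 and Fkh2 are forkhead transcription factors that also bind near many origins and advance their firing.

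Replication was followed by quantitative BrdU immunoprecipitation, in which new DNA takes up a thymidine analogue and is pulled down with an antibody. Fkh1 OE cells overexpressed Fkh1 from a GAL promoter (WT pGAL-Fkh1), Fkh2 OE cells overexpressed Fkh2 (WT pGAL-Fkh2), and no OE cells held the empty promoter (WT pGAL). The double mutant (DM) was fkh1delta fkh2delta ars501delta::ARS305, a strain in which the early origin ARS305 stood in place of the late origin ARS501 near the right end of chromosome V, with pGAL-Fkh1 (DM Fkh1 OE) or with pGAL alone (DM). RNR3 OE cells, which overexpressed a subunit of ribonucleotide reductase, had a no OE control of their own. G1 arrest of all cultures took 3 h in 7.5 nM α-factor, and they were then kept in 2% galactose with α-factor for 2 h, all at 25 °C. In the hydroxyurea (HU) experiments they were released for 60 min into 0.2 M HU, which stalls forks close to early origins, with 400 µg/mL BrdU, and Fkh1 OE, Fkh2 OE and no OE had 3 immunoprecipitated libraries each, the other HU groups 2 each. The time course used no HU: Fkh1 OE and no OE cells were labelled with BrdU at 800 µg/mL between 20 and 35, 30 and 45, or 40 and 55 min from release, with 2 libraries per pulse and group. RNA came from 2 libraries of G1-arrested cells per group for Fkh1 OE, Fkh2 OE and no OE.

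The authors combined all libraries of a group into 1 BrdU column of relative units, so no BrdU value has a standard deviation, a test or a known depth. "Rose" and "fell" are used for tiles from 2-fold on. Tiles with a column at 0 were given no fold. Levels are also given as multiples of the median of all measured nuclear tiles of the same column, called the nuclear median, which a change of scale of that column cannot move. Scaling each column to its nuclear sum, in place of the deposited scale, would move every log2 fold of Fkh1 OE against no OE in HU by -0.48, of Fkh2 OE against no OE by 0.62, of Fkh2 OE against Fkh1 OE by 1.10, of the 3 pulses by -1.09, -0.45 and -0.02, of DM Fkh1 OE against DM by 0.61 and of RNR3 OE against its control by -0.21. Scaling to the mitochondrial bins would move the same folds by -0.25, -0.05, 0.21, -0.09, 0.13, 0.34, 0.04 and 0.13.

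The ends held less BrdU than their share of the genome in all 13 columns. The tiles within 30 kb made up 6.42% of the bins measured in the HU table but held 3.45% of the nuclear signal in Fkh1 OE, 4.06% in Fkh2 OE and 3.95% in no OE. In the double mutant they made up 5.89% of the bins and held 4.73% of the signal in DM Fkh1 OE, against 2.03% in DM. These shares include the inserted origin ARS305 on VR, whose tile stood at 90.6 times the nuclear median in DM Fkh1 OE and 4.81 times in DM. In the time course, where they made up 6.57% of the bins, Fkh1 OE cells had 3.18%, 3.92% and 5.92% in the pulses to 35, 45 and 55 min, and no OE cells 3.46%, 4.31% and 5.91%. The deficit was thus large in the early pulses and small in the last one, in both strains.

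In HU, the tile medians 5 to 30 kb from an end were 0.855 of the nuclear median in Fkh1 OE, 0.901 in Fkh2 OE and 0.916 in no OE. Tiles of at least 3 times the nuclear median made up 5.48% of the tiles there in Fkh1 OE, 4.44% in Fkh2 OE and 4.44% in no OE. In the interior these shares were 12.9%, 8.63% and 9.78%. The outer 5 kb behaved otherwise: 14.3% of its measured tiles stood that high in Fkh1 OE and 15.7% in Fkh2 OE, against 25.7% in no OE. Reads of these repeats may be shared between ends and with other copies, so a single end cannot be told from another there.

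In the pulses the bands 5 to 30 kb from an end stood below tiles at 75 to 100 kb, but the level did not always climb steadily inwards. At 35, 45 and 55 min the band at 30 to 40 kb had 0.658, 0.635 and 0.949 of the nuclear median in Fkh1 OE. In no OE it had 0.732, 0.477 and 0.799. The band at 15 to 20 kb had 0.698, 0.569 and 0.950 in Fkh1 OE, and 0.825, 0.845 and 0.911 in no OE. In Fkh1 OE at 35 min, bands at 5 to 10, 10 to 15, 15 to 20, 20 to 25 and 25 to 30 kb had medians of 0.454, 0.466, 0.698, 0.600 and 0.784 of the nuclear median, and tiles at 75 to 100 kb had 1.59. In no OE at 35 min the same 5 bands had 0.734, 0.634, 0.825, 0.784 and 0.832, and tiles at 75 to 100 kb had 1.12. At 45 min the 5 bands had 0.392, 0.469, 0.569, 0.620 and 0.701 in Fkh1 OE, a steady climb inwards, against 0.845, 0.732, 0.845, 0.616 and 0.551 in no OE, where the 5 to 20 kb bands stood above those at 20 to 30 kb. At the borders of the zone at 45 min, the fifth tile from the end, just outside it, had a median of 0.235 of the nuclear median in Fkh1 OE and 0.244 in no OE, and the sixth, just inside, 0.260 and 0.282. The last tile within 30 kb had 0.667 in Fkh1 OE and 0.464 in no OE, and the first tile beyond it 0.623 and 0.449.

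**Figure D1:**
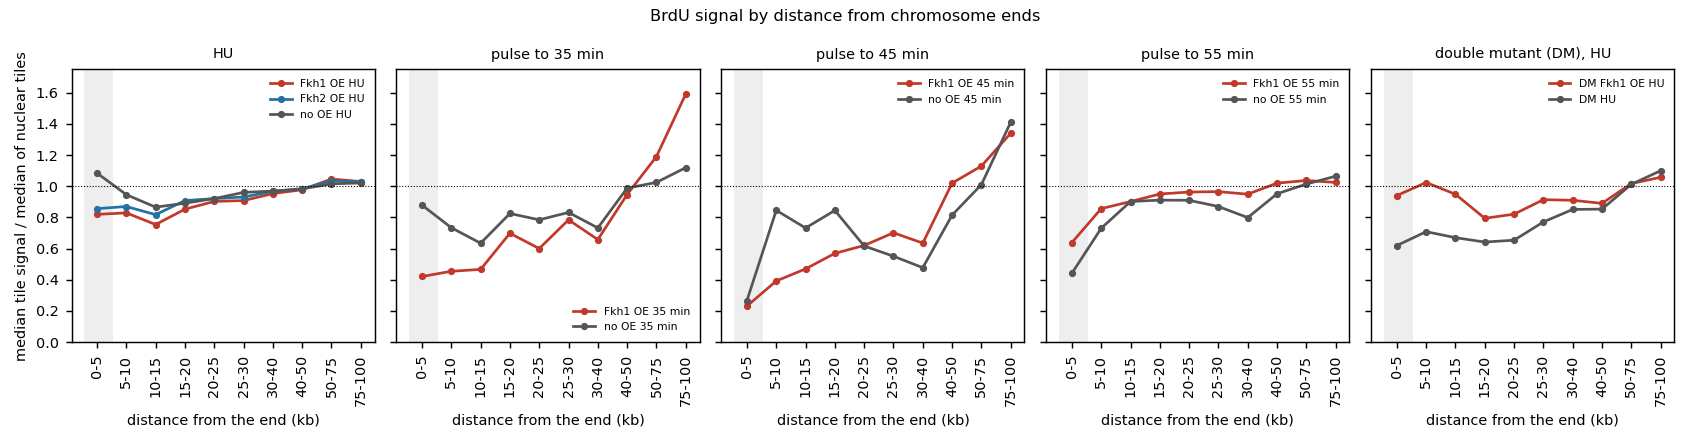
Median BrdU signal of 1 kb tiles in bands of distance from the chromosome ends (x axis, kb), divided by the median of all nuclear tiles of the same column (y axis), for the groups named in each panel, with the outer 5 kb shaded. In the pulse to 35 min the line of Fkh1 OE runs between 0.421 in the outer 5 kb and 1.59 at 75 to 100 kb, and that of no OE between 0.634 and 1.12.

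On the deposited scale the level 5 to 30 kb from the ends climbed over the 3 pulses in both strains, as did the nuclear median. The nuclear median was 0.0243, 0.156 and 0.237 in Fkh1 OE, and 0.00869, 0.0711 and 0.243 in no OE. Relative to it, the zone was lower at 45 than at 35 min and highest at 55 min. In Fkh1 OE the median tile there had a signal of 0.0139, 0.0855 and 0.222 in the pulses to 35, 45 and 55 min, which was 0.574, 0.550 and 0.936 of the nuclear median. In no OE the medians were 0.00680, 0.0483 and 0.214, or 0.783, 0.680 and 0.882 of the nuclear median. By the last pulse the zone was close to the interior in both strains, while the outer 5 kb still stood at 0.638 in Fkh1 OE and 0.441 in no OE. Tiles 5 to 30 kb from an end that were under 0.5 of the nuclear median made up 42.9% in Fkh1 OE and 30.6% in no OE at 35 min, and 5.80% and 13.2% at 55 min.

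The 32 ends differed widely in the early pulses. At 35 min the right end of chromosome XIII (XIIIR) was the highest in Fkh1 OE, with a median tile at 8.24 times the nuclear median, followed by IXR at 4.59 and IIR at 3.06. In no OE the right end of IX came first with 7.53 times, then XIIIR with 5.92 and XIIIL with 1.46. At 55 min these ends were near the nuclear median: IXR had 1.08 in Fkh1 OE and 1.33 in no OE, and XIIIR had 0.893 and 1.29. IVL, among the 3 lowest ends of no OE at 45 and 55 min, had 0.335, 0.359 and 0.853 of the nuclear median over the 3 pulses in Fkh1 OE, and 0.341, 0.225 and 0.503 in no OE. In Fkh1 OE its last 2 values lay at the lower quartile of the 32 ends (0.354 and 0.852). The right ends of I and VIII were lower still, at 0.390 and 0.466 in Fkh1 OE and 0.283 and 0.347 in no OE at 55 min. These ends share long stretches of sequence, so their reads may be shared, and 14 tiles of each were measured in the time course. The 7 ends with an annotated YRF1 gene, which encodes a helicase of the Y' element, had a median of 0.490 at 35 min in Fkh1 OE, against 0.765 for the 25 ends without one. In no OE these medians were 0.784 and 0.698, and the ranges of both sorts of end overlapped in each column. Ends were sorted by the gene name YRF1 alone, so an end without one may still hold a Y' element. These medians therefore do not compare ends with and without Y' elements.

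**Figure D2:**
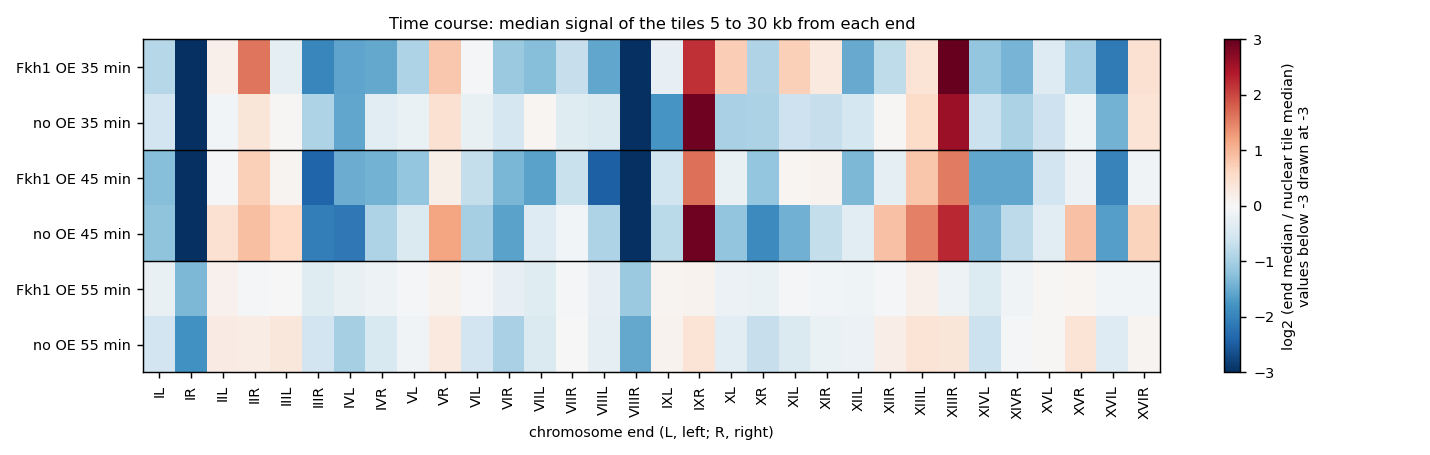
Median BrdU signal of the tiles 5 to 30 kb from each of the 32 chromosome ends (x axis) in the 6 time course columns (rows), as log2 of the ratio to the nuclear median (colour; values below -3 drawn at -3). IXR and XIIIR are the darkest red ends of the pulses to 35 and 45 min, and IR and VIIIR are the lowest ends of the last pulse in both strains.

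For Fkh1 OE against no OE in the pulse to 35 min, 369 of the 649 tiles 5 to 30 kb from an end with a fold rose and 8 fell. These were 56.9% and 1.23%, where 60.8% of all nuclear tiles rose and 0.173% fell, so the share of rises was close to that of the genome. The median log2 fold was 1.14, which was 0.09 below that of the interior (1.22). In the outer 5 kb, 11 of 65 tiles rose and 5 fell, and the median log2 fold was 0.04, or 1.18 below the interior, but -1.05 with columns scaled to the nuclear sum and -0.05 to the mitochondrial bins, and -0.34 among tiles that reached the nuclear median in the column where they were higher. The median of the zone depended on the scale of the columns, since scaling to the nuclear sum gave a median log2 fold of 0.04 with 138 tiles higher and 68 lower. All 30 ends with at least 10 tiles had a median above no OE, and 19 of these were at least 2-fold higher.

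The left ends of X and XI had the highest median folds in this pulse. XIL had a median tile signal of 0.0401 in Fkh1 OE against 0.00569 in no OE, with 24 of 25 tiles risen. XL had 0.0406 against 0.00443, with all 11 tiles that had a fold risen. Along XIL the signal of Fkh1 OE formed a slope on either side of tile 17 (chromosome XI 16001 to 17000, beside COS9, a member of a subtelomeric family of membrane proteins), which reached 0.0961 against 0.00446 in no OE, a 21.6-fold difference. Tile 13 of that end (12001 to 13000, beside FRE2, a ferric reductase) had the largest fold among tiles of the zone that reached the nuclear median in the column where they were higher, with 0.0638 in Fkh1 OE and 0.00212 in no OE. On XL the tile inside REE1 (chromosome X 23001 to 24000), a gene with a role in the control of enolase, had 0.0729 in Fkh1 OE against 0.00483 in no OE, and that inside the hexose transporter gene HXT9 (20001 to 21000) had 0.0363 against 0.00314. HXT9 has close relatives at other ends, so its reads may be shared. Chromosome I 202201 to 203200, beside the flocculin gene FLO1, which has near-identical relatives, had 0.0542 in Fkh1 OE against 0.00223 in no OE.

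Falls in this pulse were few. The tile beside PAU18 (chromosome XII 11001 to 12000), a seripauperin gene of a family with many near-identical copies, had 0.0122 in Fkh1 OE and 0.0522 in no OE. The tile beside GEX1 (III 8001 to 9000), which encodes a glutathione exchanger, had 0.00195 against 0.00877. The 3 ends with the smallest change, VIIL, VIIIL and XIIL, had median folds of 1.21, 1.21 and 1.25.

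In the pulse to 45 min, Fkh1 OE against no OE gave 250 tiles risen and 5 fallen of 663 in the zone, 37.7% and 0.754%, with 45.1% and 0.095% among all nuclear tiles. Scaled to the nuclear sum, 146 tiles of the zone were higher and 40 lower. Median log2 folds were 0.61 in the zone and 0.90 in the interior. The median climbed with distance, with values of -0.07, 0.09, 0.48, 0.93 and 1.22 in the 5 bands between 5 and 30 kb. Among ends, XIL had the highest median fold, with 0.162 in Fkh1 OE against 0.0260 in no OE and all 25 tiles risen. There the tile inside JEN1 (XI 22001 to 23000), the lactate permease gene, had 0.162 against 0.0260. The left end of VIII had a median of 0.0284 in Fkh1 OE and 0.0375 in no OE, and its tile inside ARN2 (VIII 8001 to 9000), a siderophore transporter gene, fell to 0.0874, against 0.178 in no OE. Among tiles that reached the nuclear median in the column where they were higher, the median log2 fold of the zone was -0.02.

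By the pulse to 55 min few tiles of the zone differed by 2-fold. Of 686 tiles 27 rose and 1 fell, 3.94% and 0.146%, with 9.38% and 0.0516% among all nuclear tiles. The median log2 fold was 0.02 and lay just below 0 with columns scaled to the nuclear sum, and scaling to the mitochondrial bins gave 81 tiles higher and 0 lower. In the outer 5 kb, 20 of 79 tiles rose and 1 fell, and the median log2 fold was 0.62, or 0.63 above the interior. Among the 24 outer tiles that reached the nuclear median in the column where they were higher, 4 were higher and the median was -0.20. In the zone the same limit gave a median of -0.19, with 0 tiles higher and 0 lower. IVL and VIR were among the 3 ends with the largest median folds: IVL had 0.202 in Fkh1 OE against 0.122 in no OE, and VIR had 0.201 against 0.124. XIIIR and IXR had the lowest median folds, with XIIIR at 0.212 in Fkh1 OE against 0.313 in no OE and IXR at 0.256 against 0.325, both less than 2-fold.

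**Figure D3:**
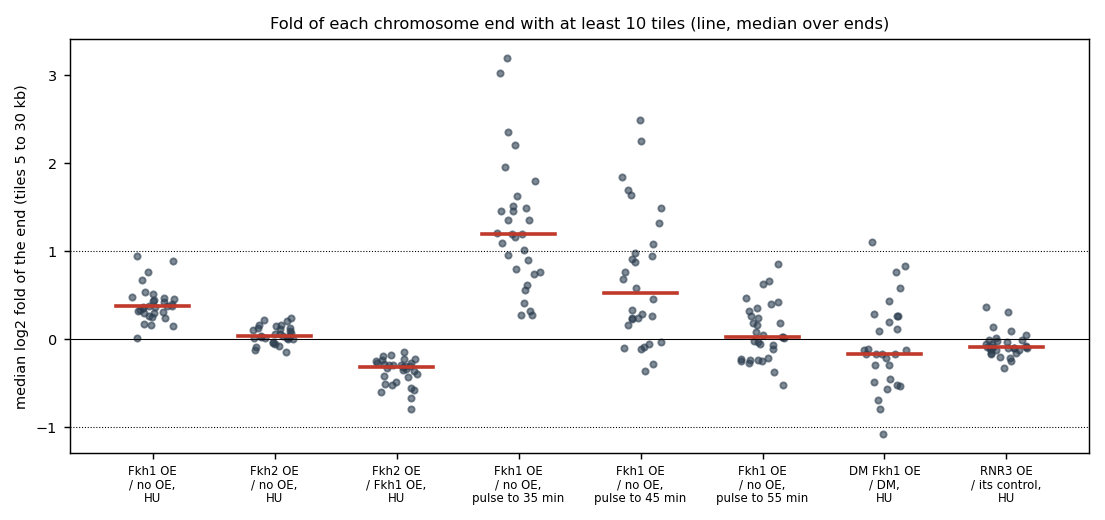
Median log2 fold of the tiles 5 to 30 kb from each end with at least 10 such tiles (1 point per end, y axis) in each of the 8 comparisons (x axis), with the median over ends as a red line and 2-fold as dotted lines. Points spread widest in the pulse to 35 min, between 0.28 and 3.19, and all 31 ends of Fkh2 OE against Fkh1 OE lie below 0. In the comparisons of Fkh1 OE, Fkh2 OE and no OE in HU, points are medians of mostly low-signal tiles.

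In HU, Fkh1 OE against no OE asked which sites near ends took up BrdU in early S phase. Of 673 tiles in the zone 61 rose and 16 fell, 9.06% and 2.38%, where 11.5% of all nuclear tiles rose and 0.456% fell. In the zone the median log2 fold was 0.39, against 0.46 in the interior. It was -0.09 with columns scaled to the nuclear sum, which gave 35 tiles higher and 33 lower. Median folds among the Fkh1 OE, Fkh2 OE and no OE columns in HU mostly describe tiles of low signal. Tiles of at least 3 times the nuclear median made up 5.48% of the zone in Fkh1 OE and 4.44% in no OE. These medians therefore cannot be read as a gain or loss of replication over the whole zone. Rises were more frequent inwards, with 6 of 106 tiles at 5 to 10 kb and 20 of 155 at 20 to 25 kb. In the outer 5 kb 0 of 68 tiles rose and 17 fell.

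The largest rise in HU was inside MAL33 (chromosome II 801151 to 802150), a gene of the maltose locus that encodes its activator. Its tile had a signal of 0.148 in Fkh1 OE, 0.0186 in Fkh2 OE and 0.0168 in no OE, so that Fkh1 OE stood 8.82-fold above no OE and Fkh2 OE lay with no OE. The neighbouring tiles 9 to 14 of that end had the same shape, and 12 of the 25 tiles of IIR rose. The site beside COS9 had 0.0284 in Fkh1 OE, 0.00933 in Fkh2 OE and 0.00362 in no OE, in that order. Near the right end of XI, the tile beside SIR1 (XI 642801 to 643800), a gene for silencing at the mating cassettes, had 0.0257 in Fkh1 OE, 0.00664 in Fkh2 OE and 0.00412 in no OE. REE1 had 0.0165, 0.00929 and 0.00363 in the same groups. At these 3 sites no OE was below the nuclear median, with 0.830, 0.944 and 0.831 of it.

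Fkh2 OE against no OE changed few tiles: 17 of 673 rose and 21 fell, 2.53% and 3.12%, where 2.18% of all nuclear tiles rose and 5.31% fell. The median log2 fold was 0.05 in the zone and 0.04 in the interior. Scaled to the nuclear sum it was 0.67, with 80 tiles higher and 9 lower, and it was -0.0040 among tiles that reached the nuclear median in the column where they were higher. The tile beside the retrotransposon frame YBL100W-B (II 29001 to 30000) rose in Fkh2 OE to 0.0238, and in Fkh1 OE to 0.0251, against 0.00433 in no OE, and the factors differed by less than 2-fold there. Reads near a retrotransposon may be shared with its other copies. A tile beside BSC5 (XIV 763301 to 764300) had 0.0119 in Fkh2 OE, 0.00620 in Fkh1 OE and 0.00357 in no OE. Fkh2 OE was the higher of the 2 factors there, but by less than 2-fold (1.91-fold). SUL1 (II 791151 to 792150), the sulfate permease gene, had 0.00884 in Fkh2 OE, 0.0128 in Fkh1 OE and 0.00339 in no OE. The largest falls with Fkh2 OE among tiles that reached the nuclear median in the column where they were higher lay on IXR, VR, XIIR and XIIL. On the right end of IX the tiles inside DAL4 and DAL7, genes of allantoin use, had 0.0814 and 0.0566 in Fkh2 OE, against 0.321 and 0.206 in no OE. The tile beside YER188C-A on VR (V 568851 to 569850) had 0.0162 in Fkh2 OE, 0.0411 in Fkh1 OE and 0.0621 in no OE. It is tile 8 of an end with an annotated YRF1 gene, so its reads may be shared with other ends. A pair of tiles with repeats, beside YRF1-4 (XII 1071151 to 1072150) and beside YLL066W-B (XII 5001 to 6000), fell with either factor: the one beside YRF1-4 had 0.0449 in Fkh2 OE, 0.0778 in Fkh1 OE and 0.171 in no OE.

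Fkh2 OE against Fkh1 OE set the factors side by side. Of 675 tiles 15 rose and 56 fell, 2.22% and 8.30%, where 0.198% of all nuclear tiles rose and 15.1% fell. The median log2 fold was -0.35 in the zone and -0.46 in the interior, but scaling to the nuclear sum gave 0.75 in the zone. Of the 245 tiles of the zone that reached the nuclear median in the column where they were higher, 0 rose and 52 fell. The largest difference was at MAL33, 8.0-fold lower in Fkh2 OE. On XIIIR the tile inside TGL3 (XIII 899401 to 900400), a triacylglycerol lipase gene, had 0.0290 in Fkh2 OE against 0.132 in Fkh1 OE. The fold at the IXR and XIIIR ends was spread over 7 and 11 tiles that fell. All 3 comparisons in HU use the same 3 columns, so their folds are not independent.

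**Figure D4:**
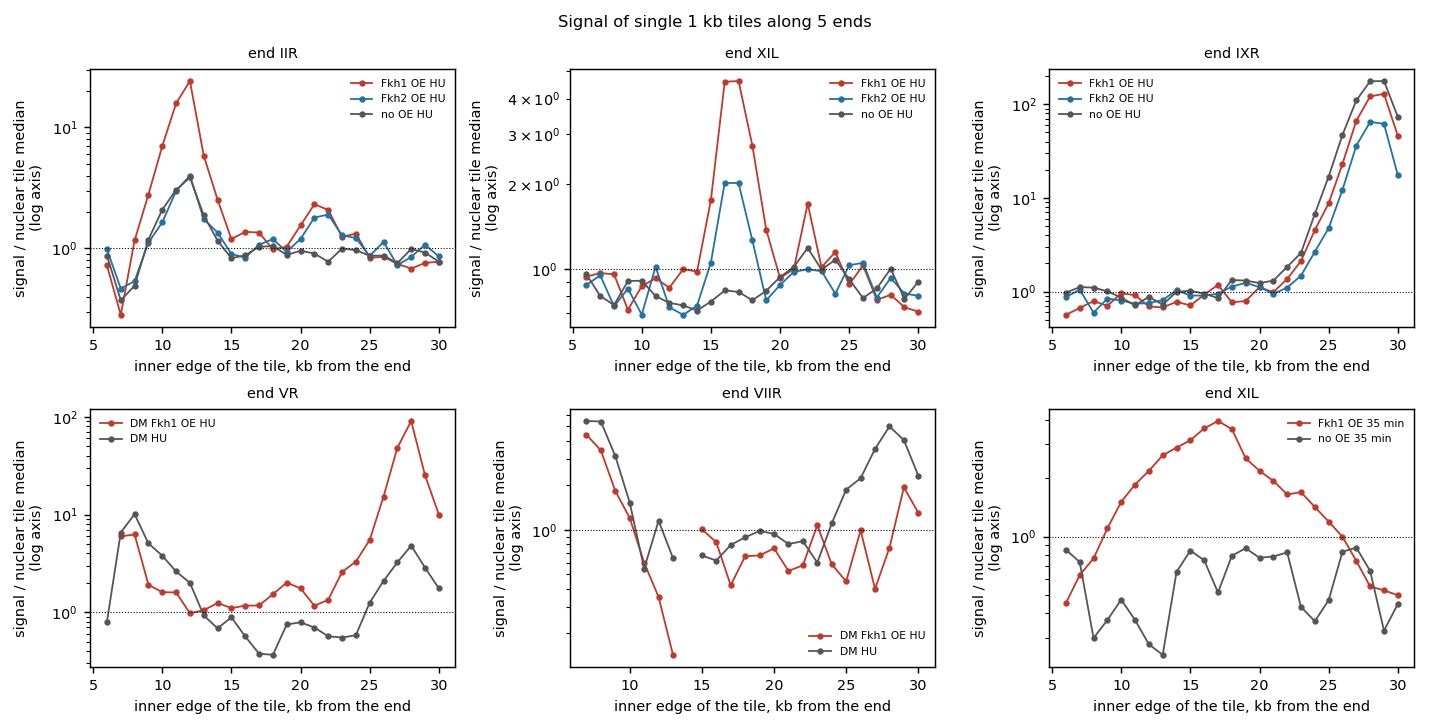
BrdU signal of single 1 kb tiles, divided by the nuclear median (y axis, log scale), against the inner edge of the tile in kb from the end (x axis) along 5 ends, in HU for Fkh1 OE, Fkh2 OE and no OE, in HU for the double mutant, and in the pulse to 35 min. At IIR the peak is 24.1 in Fkh1 OE and 4.0 in Fkh2 OE against 3.85 in no OE, and at the ARS501 tile of VR it is 90.6 in DM Fkh1 OE against 4.81 in DM; missing tiles and tiles at 0 are not drawn.

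Sites of local signal were listed over all 13 columns, as tiles of the zone that were the highest of the 5 tiles centred on them and at least 3 times the nuclear median. By the RNR3 control column alone there were 2 such sites, but its nuclear median was high (0.158), so few tiles could reach 3 times that level. Over all columns, a choice made after the values were seen, there were 30 sites on 18 of the 32 ends, 9 of which met both conditions in 1 column. Since sites were picked on the values given here, these are descriptions. Some sites lie just inside the outer 5 kb, such as those at tile 7 beside YRF1-1, YRF1-4 and YRF1-6. Reads of such repeats may be shared between ends, so the sites and ends counted here may not all be separate. Per 100 measured tiles the zone held 1.93 sites in Fkh1 OE, 2.22 in Fkh2 OE and 1.63 in no OE in HU, against 2.99, 2.45 and 1.92 in the interior.

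The highest level of any site relative to the nuclear median, that of no OE in HU, lay inside DAL2 (IX 410851 to 411850), the allantoicase gene of the DAL cluster. Its signal in HU was 0.794 in Fkh1 OE, 0.286 in Fkh2 OE and 0.772 in no OE, which was 129, 61.8 and 177 times the nuclear median. In the pulse to 35 min it was 0.661 in Fkh1 OE and 0.547 in no OE, and at 55 min 0.129 and 0.176, below the nuclear median in both. In the double mutant it was 0.482 in DM Fkh1 OE against 0.0496 in DM, and RNR3 OE had 0.634 against 0.554 in its control. Relative to the nuclear median it stood at 79.8 times in DM Fkh1 OE, 6.10 times in DM, 4.21 times in RNR3 OE and 3.51 times in the RNR3 control.

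The site beside GLC8 (XIII 897401 to 898400), which encodes a regulator of protein phosphatase 1, was higher than DAL2 in several columns. Among these the GLC8 site stood at 71.0 times the nuclear median in Fkh2 OE in HU, 28.2 times in DM and 90.2 times in DM Fkh1 OE. It had 0.688 in Fkh1 OE, 0.329 in Fkh2 OE and 0.180 in no OE in HU, and 0.545 in DM Fkh1 OE against 0.229 in DM. That inside NDI1 (XIII 29001 to 30000), the mitochondrial NADH dehydrogenase gene, had 0.0868 in Fkh1 OE, 0.0244 in Fkh2 OE and 0.0587 in no OE, and 0.0531 in DM Fkh1 OE against 0.00967 in DM. MAL33 had 0.112 in DM Fkh1 OE against 0.00828 in DM, or 18.5 and 1.02 times the nuclear median. Several sites were high in the pulses and near the nuclear median in HU. The site inside FRE5 (XV 1061251 to 1062250), a gene of the ferric reductase family, had 7.38 times the nuclear median in Fkh1 OE and 10.99 times in no OE at 35 min, but 1.04 and 1.19 times in HU. TUB3 (XIII 22001 to 23000), an α-tubulin gene, had 5.06 and 3.78 times at 35 min and 0.816 and 0.882 times in HU.

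**Figure D5:**
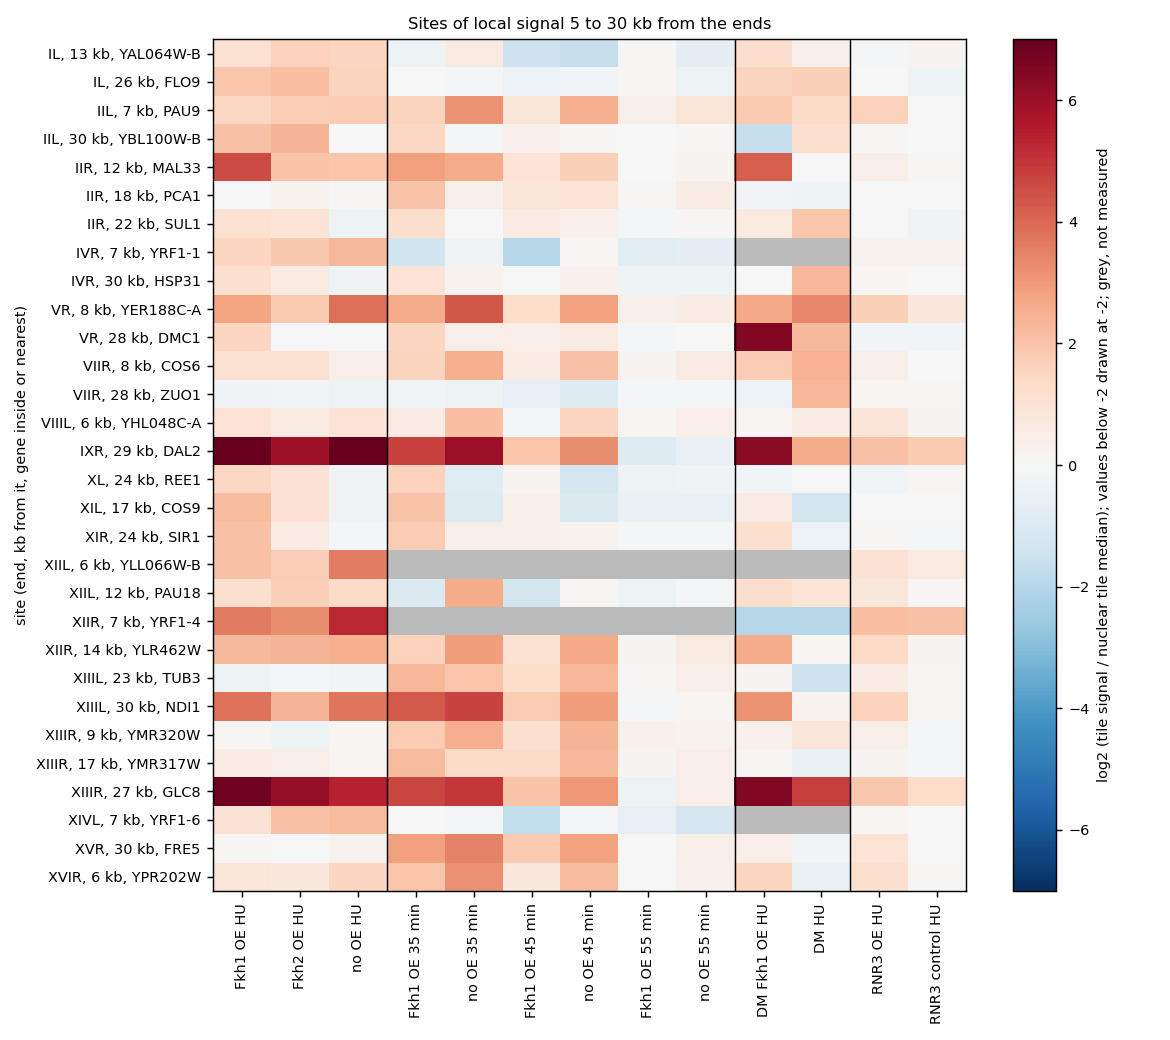
BrdU signal of 30 sites 5 to 30 kb from the chromosome ends (rows, named by end, kb and the gene inside or nearest) in the 13 BrdU columns, as log2 of the ratio to the nuclear median (colour; values below -2 drawn at -2; grey, not measured). The rows of DAL2 and GLC8 are the darkest, with 129 and 112 times the nuclear median in Fkh1 OE in HU, and the columns of the pulse to 55 min are pale at all sites.

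With Fkh1 added to the double mutant, the median log2 fold of the zone lay below 0 on the deposited scale, but less so than that of the interior. Of 620 tiles in the zone 86 rose and 79 fell, 13.9% and 12.7%, where 4.59% of all nuclear tiles rose and 28.5% fell. The median log2 fold was -0.11 in the zone and -0.51 in the interior, a difference of 0.40 that no scale of the columns can move. Most zone tiles had low signal, with 6.09% in DM Fkh1 OE and 5.45% in DM at 3 times the nuclear median or more. The outer 5 kb had 14 of 57 tiles risen and 6 fallen, with a median 0.77 above the interior. The outer median log2 fold of 0.26 became -0.056 with the median of the bins of a tile. Scaled to the nuclear sum, the zone had a median log2 fold of 0.50, with 173 tiles higher and 29 lower, and among tiles that reached the nuclear median in the column where they were higher it had 0.32. Between ends the folds differed in direction, with 11 of 29 ends above 0 and 18 below.

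The tile of the ARS305 insertion at ARS501 had a 14.0-fold rise, below a tile of VIIIR (27.6-fold) and that inside DCG1 (14.5-fold) among tiles that reached the nuclear median. This tile (V 548851 to 549850 in R64, the tile of DMC1, a meiotic recombinase gene) had 0.547 in DM Fkh1 OE against 0.0391 in DM, 90.6 and 4.81 times the nuclear median. With ARS501 in its native place, the same tile had 0.0176 in Fkh1 OE, 0.00471 in Fkh2 OE and 0.00428 in no OE in HU, so it rose 4.12-fold with Fkh1. In the pulse to 35 min it had 0.0679 in Fkh1 OE and 0.0119 in no OE, and at 55 min 0.217 and 0.248. Positions on V beyond the insertion follow the strain's own coordinates, and tiles were matched by distance from the right end. The IXR end had 15 of 25 tiles risen, with 0.653 in DM Fkh1 OE against 0.0450 in DM in the tile inside DCG1 (IX 411851 to 412850), which lies in the DAL cluster.

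Another set of tiles was higher in DM and fell with added Fkh1. The tile inside BIO2 (VII 1063901 to 1064900), the biotin synthase gene, had 0.00241 in DM Fkh1 OE against 0.0287 in DM, 11.9-fold lower, and 13 of the 23 tiles of VIIR fell. Its neighbour beside ZUO1 (VII 1062901 to 1063900), which encodes a ribosome-associated chaperone, had 5.00 times the nuclear median in DM, and in each of the other 12 columns between 0.541 and 1.10 times. On IVR the tile inside FIT1 (IV 1502901 to 1503900), a cell wall mannoprotein gene, had 0.00528 in DM Fkh1 OE against 0.0388 in DM. The YBL100W-B tile had 0.00194 in DM Fkh1 OE against 0.0179 in DM, or 0.322 and 2.21 times the nuclear median, and its reads may be shared. The strongest ratio, 27.6-fold at VIII 549601 to 550600, rests on a DM value of 0.000256 at an end with shared sequence.

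RNR3 OE against its control gave 30 tiles risen and 2 fallen of 692, 4.34% and 0.289%, where 7.61% of all nuclear tiles rose and 0.0773% fell. The nuclear median was 0.151 in RNR3 OE and 0.158 in the control, against 0.00437 in no OE of the HU table. Peaks stood less far above it: the DAL2 tile had 4.21 and 3.51 times the nuclear median, against 177 times in that no OE column. The 2-fold rule thus had a smaller range to work on here than in the other HU tables. Median log2 folds were -0.06 in the zone and -0.04 in the interior, and that of the zone was 0.08 with columns scaled to the mitochondrial bins and 0.025 among tiles that reached the nuclear median in the column where they were higher. The tile median of the zone was 0.969 of the nuclear median in RNR3 OE and 0.976 in the control. Tiles of the DAL cluster rose: those inside DAL3 (IX 414851 to 415850), the ureidoglycolate lyase gene, and DAL4 (IX 409851 to 410850) had 0.465 and 0.728 in RNR3 OE, against 0.145 and 0.265 in the control, while the tile inside DAL2 differed by less than 2-fold. NDI1 had 0.456 in RNR3 OE against 0.169 in the control. The tile near YBL111C (II 5001 to 6000), which holds repeats, had 0.449 against 0.0804.

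The silent mating cassette HMR was below the nuclear median in all 3 pulses. The tile inside HMRA1 (III 293601 to 294600) had 0.00682, 0.0385 and 0.190 in Fkh1 OE over the 3 pulses, and 0.00332, 0.0170 and 0.130 in no OE. This was 0.281, 0.247 and 0.800 of the nuclear median in Fkh1 OE, and 0.382, 0.239 and 0.535 in no OE. In HU it had 0.00464 in Fkh1 OE, 0.00316 in Fkh2 OE and 0.00340 in no OE, all below the nuclear median. HML was measured in part: the tile inside HMLALPHA2 (III 12001 to 13000) had 0.109 in Fkh1 OE and 0.0881 in no OE at 55 min, and the tile inside HMLALPHA1 was measured in no table. HML, HMR and the expressed MAT locus share sequence, so their reads may be shared.

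RNA of the same regions was taken from the authors' deposited table, whose calls are at the authors' q below 0.05. No label says that the paired libraries of a group are separate cultures, so the q-values may rest on technical spread only. For Fkh1 OE against no OE, the authors' deposited table gave 11 genes higher and 6 lower of 289 tested between 5 and 30 kb, 3.81% and 2.08%, with 5.6% higher and 5.41% lower among all genes tested. For Fkh2 OE against no OE, the authors' deposited table gave 34 higher and 30 lower of 289, 11.8% and 10.4%, with 13.7% and 17.1% among all genes tested. For Fkh2 OE against Fkh1 OE, the authors' deposited table gave 17 higher and 22 lower of 289, 5.88% and 7.61%, with 7.24% and 11.7% among all genes tested. Median log2 folds of the zone in the authors' deposited table were -0.04, -0.03 and 0.00, against 0.01, -0.03 and -0.04 over all genes tested. The outer 5 kb had 29, 29 and 30 genes tested in these comparisons of the authors' deposited table, of which 0, 3 and 3 were called.

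Among genes with values above 0 in both groups, the same 3 headed the higher calls with either factor. The joint entry of YIL174W and YIL175W was also called higher with each factor in the authors' deposited table. It had 5.15 FPKM in Fkh1 OE and 6.52 in Fkh2 OE, against 0 in no OE. URA1 (XI 25215 to 26159), the dihydroorotate dehydrogenase of pyrimidine synthesis, had 335.7 FPKM in Fkh1 OE, 432.4 in Fkh2 OE and 151.3 in no OE in the authors' deposited table (q = 0.000327 for each factor against no OE). SIT1 (V 27657 to 29543), a siderophore transporter, had 91.5 FPKM in Fkh1 OE, 117.3 in Fkh2 OE and 43.6 in no OE in the authors' deposited table. EGT2 (XIV 24048 to 27173), a cell wall gene of early G1, had 3.69, 4.79 and 1.84 FPKM in Fkh1 OE, Fkh2 OE and no OE in the authors' deposited table. The phosphate transporter PHO84 (XIII 24037 to 25800) had 1834 FPKM in Fkh1 OE, 1654 in Fkh2 OE and 1069 in no OE in the authors' deposited table. With Fkh2, the lysine synthesis gene LYS1 (IX 419615 to 420736) had 493.5 FPKM, against 270.1 in Fkh1 OE and 203.8 in no OE in the authors' deposited table, and ZUO1 had 398.6 in Fkh2 OE against 180.8 in no OE.

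HMRA1 (III 293835 to 294321), the silent copy of a mating type gene, had 552.7 FPKM in Fkh2 OE, 1295 in Fkh1 OE and 1983 in no OE in the authors' deposited table, lower with each factor (q = 0.0123 for Fkh1 OE and 0.000327 for Fkh2 OE). Its sequence is that of the gene expressed at MAT in a cells, from which its reads cannot be told apart. These values therefore cannot be read as a change at HMR. PGU1 (X 722815 to 723900), an endopolygalacturonase, had 63.0 FPKM in Fkh2 OE, 126.2 in Fkh1 OE and 152.7 in no OE in the authors' deposited table. CDC50 (III 286762 to 287937), a flippase subunit, had 26.9 FPKM in Fkh2 OE against 62.3 in no OE in the authors' deposited table. MDJ2 (XIV 22834 to 23274), a mitochondrial import chaperone, had the largest fold downwards among genes with values above 0 in both groups in the authors' deposited table, with 3.52 FPKM in Fkh2 OE, 7.82 in Fkh1 OE and 22.3 in no OE.

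The subtelomeric gene families were mostly without a call. Among all genes tested in the authors' deposited table, 5.6% were higher and 5.41% lower for Fkh1 OE against no OE, 13.7% and 17.1% for Fkh2 OE against no OE, and 7.24% and 11.7% for Fkh2 OE against Fkh1 OE. Of the COS genes 9 were tested in the authors' deposited table, with 0 called for Fkh1 OE and 1 higher for Fkh2 OE against no OE (COS7, with 40.3 FPKM against 26.5). Of the PAU genes 9 and 7 were tested in these comparisons of the authors' deposited table, and 0 of the 8 YRF1 genes, with 0 calls. Of 6 MAL genes 0 were called for Fkh1 OE and 2 were lower for Fkh2 OE against no OE in the authors' deposited table, MAL33 with 32.8 FPKM against 62.0 and the maltose transporter gene MAL11 with 26.6 against 45.8. MAL33 thus had the largest BrdU rise with Fkh1 OE in HU while its RNA had 54.6 FPKM in Fkh1 OE against 62.0 in no OE in the authors' deposited table (q = 0.549). IMA1, an isomaltase gene, was higher in Fkh2 OE with 11.9 FPKM against 7.20 in no OE in the authors' deposited table, and AAD4, an aryl-alcohol dehydrogenase gene, with 52.8 against 32.7. Of the 5 FLO genes 0 and of the 3 ARR genes 0 were called against no OE for either factor in the authors' deposited table. Of 15 HXT genes tested in the authors' deposited table, 4 were higher and 0 lower for Fkh1 OE against no OE. For Fkh2 OE against no OE, 2 were higher and 3 lower in the authors' deposited table. The family has 8 of 17 members within 30 kb of an end. No HXT gene was among the genes called higher for Fkh1 OE within 30 kb, so all 4 lay farther in. Of the 4 PHO genes 1, PHO84, was higher with each factor, and 3, PHO11, PHO12 and PHO89, were lower in Fkh2 OE than in Fkh1 OE in the authors' deposited table.

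Genes of proteins that act at the ends were also read from the RNA, namely SIR1, SIR2, SIR3, SIR4, RIF1, RIF2, RAP1, YKU70 and YKU80. Of these 9 genes, 1 was lower for Fkh1 OE and 6 were lower for Fkh2 OE against no OE in the authors' deposited table, where 5.41% and 17.1% of all genes tested were lower. None of the 9 was called higher against no OE, and 1, SIR1, lies within 30 kb of an end. SIR3, the spreading factor of silent chromatin, had 13.01 FPKM in Fkh2 OE, 22.4 in Fkh1 OE and 33.6 in no OE in the authors' deposited table. YKU80, a Ku subunit, had 5.94 FPKM in Fkh2 OE, 11.1 in Fkh1 OE and 14.1 in no OE in the authors' deposited table. Of the 61 genes nearest to the sites and tiles examined above, 51 were tested for Fkh1 OE against no OE in the authors' deposited table, with 0 higher and 3 lower, and 50 for Fkh2 OE, with 5 higher and 6 lower. Shares among all genes tested in the authors' deposited table were 5.6% higher and 5.41% lower for Fkh1 OE, and 13.7% and 17.1% for Fkh2 OE.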

How the data were processed

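DNA of BrdU-labelled cells was sheared to about 300 bp and ligated, with 20 ng set aside as Input and 1 µg immunoprecipitated, per the labels' protocols. Of 64 samples in 29 groups, 58 are DNA and 6 RNA. The authors deposited BrdU signal in 50 bp bins of 4 tables with 13 columns, each combining the libraries of a group. The sources used here do not give how Input and scale entered, and depth is unknown. Bowtie2, SAMtools, bedtools, TopHat2, Cufflinks, Cuffdiff and build R64 are named per the submitters' processing notes. RNA values are FPKM and q-values of the authors' deposited Cuffdiff table.

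Bins at 0 in every column of a table were missing, and signal was averaged in tiles counted from each end. Folds were taken within a table. Per-library tests had been planned, but the combined columns allow none. In each comparison, the 5 tiles of largest rise and fall that reached the nuclear median, the 3 highest and lowest ends with at least 10 tiles, and the 10 highest and lowest RNA genes were eligible to be named, with ARS501, HML, HMR and the gene lists. The members and lists were chosen with earlier results of these data known. Gene positions came from the RefSeq R64 table. Python 3.11.15, pandas 2.3.3, numpy 2.4.6 and matplotlib 3.10.9 were used, and the tile code was tested on simulated data.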

Additional observations from a re-analysis of the deposited data

Results flagged for a closer look

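Fkh1 OE against no OE in wild-type cells and DM Fkh1 OE against DM went in opposite directions, each by at least 2-fold, in 19 of the 175 tiles within 30 kb of an end that, in both comparisons, had a fold and reached the nuclear median in the column where they were higher. This limit was chosen after the data were seen. Of adjacent tiles, the one with the largest difference is given. The difference was not tested, since each column is a single combined value.

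Some tiles rose with Fkh1 in wild-type cells and fell with it in the double mutant, so that the wild-type log2 fold minus the double mutant one was positive. The tile beside YBL100W-B (IIL) had the largest difference, 5.74, from a log2 fold of 2.54 in wild-type cells and -3.20 in the double mutant. It was 4.67 beside HSP31 and 3.68 beside FIT1 (both IVR), 3.60 inside SUL1 (IIR), 2.73 at KAR4 (IIIL) and 2.16 beside COS6 (VIIR). At SUL1 the signal was 0.0128 in Fkh1 OE and 0.00339 in no OE, against 0.00962 in DM Fkh1 OE and 0.0308 in DM.

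The other tiles, all in the outer 5 kb, fell with Fkh1 in wild-type cells and rose in the double mutant. The difference was -9.00 near YBL113C (IIL), -7.36 near YHL050C (VIIIL), -5.65 near YEL077C (VL), -4.40 near YPR202W (XVIR), -4.19 near YLL067C (XIIL) and -3.21 near YFL066C (VIL). At IIL the signal was 0.0309 in Fkh1 OE and 0.123 in no OE, against 0.0321 in DM Fkh1 OE and 0.000250 in DM. The DM value was 0.000411 at VIIIL and 0.00155 at XVIR, where the nuclear median of DM was 0.00813. At VL, XIIL and VIL it was 0.0122, 0.00637 and 0.00527. Reads of repeats in the outer 5 kb may be shared between ends, so these tiles cannot be taken as separate cases. Between pulses 0 tiles went in opposite directions by 2-fold, of 203 tiles with a fold and that level in the pulses to 35 and 45 min, 186 in those to 35 and 55 min and 209 in those to 45 and 55 min, where few tiles fell in any pulse.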

How the results depend on the processing

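Of 330 recomputed values of 60 results, 224 kept their direction and size, 80 moved by over 1.5 times and 26 medians changed sign; with no replicates, 1.5 times stood in for their spread. No paired analysis was possible because the columns combine libraries and carry no replicate number, and no replicate could be left out for the same reason. "Zone" is 5 to 30 kb from an end and "outer" the outer 5 kb. Where fewer tiles or genes enter, counts shrink by construction; otherwise the cause was not tested.

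Scaling to the nuclear sum moved most. Zone medians (log2) became -0.091 for Fkh1 OE in HU (35 tiles higher, 33 lower), 0.67 for Fkh2 OE (80 and 9), 0.75 for Fkh2 OE against Fkh1 OE (157 and 5), 0.044 at 35 min (138 and 68), -0.0040 at 55 min and 0.50 in the double mutant (173 and 29), with 146 and 40 at 45 min and 16 and 7 for RNR3 OE. Outer medians became -0.37 for Fkh1 OE in HU, 0.49 for Fkh2 OE (6 higher), 0.77 for Fkh2 OE against Fkh1 OE (17 and 1), -1.05 at 35 min (1 and 36), -0.35 at 45 min (14 lower), 0.87 in the double mutant (25 and 2) and -0.20 for RNR3 OE (3 and 2), with 2 lower at 55 min. Scaling to mitochondrial bins gave outer medians of -0.14 for Fkh1 OE in HU and -0.048 at 35 min, and 2 outer tiles higher and 2 lower for Fkh2 OE against Fkh1 OE. It gave 81 zone tiles higher and 0 lower and 36 outer tiles higher at 55 min, and a zone median of 0.076 with 1 tile lower for RNR3 OE.

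With tiles at or above the nuclear median, zone medians became -0.0040 for Fkh2 OE (11 higher), -0.020 at 45 min (46 and 2), -0.19 at 55 min (0 and 0), 0.32 in the double mutant (41 lower) and 0.025 for RNR3 OE (1 lower), with 4 lower for Fkh1 OE in HU, 0 higher for Fkh2 OE against Fkh1 OE, and 180 and 3 at 35 min. Outer medians became -0.85 for Fkh1 OE in HU, -0.34 at 35 min (3 and 2), -0.54 at 45 min (0 higher), -0.20 at 55 min (4 higher) and 0.86 in the double mutant (2 lower), with 0 higher for Fkh2 OE, 0 and 2 for Fkh2 OE against Fkh1 OE and 0 lower for RNR3 OE.

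Keeping bins at 0 gave outer counts of 1 higher for Fkh1 OE in HU, 7 lower for Fkh2 OE against Fkh1 OE, 2 lower at 55 min and 11 higher for RNR3 OE, 5 zone tiles lower for RNR3 OE, and an outer median of -0.021 at 35 min. Bin medians gave outer medians of -0.056 in the double mutant and -0.015 for RNR3 OE, 0 outer tiles higher for Fkh2 OE, 2 and 1 for Fkh2 OE against Fkh1 OE, and 3 zone and 2 outer tiles lower at 35 min. Tiles counted from coordinate 0 gave 0 outer tiles higher for Fkh2 OE against Fkh1 OE and an outer median of -0.11 at 35 min. From 10 to 30 kb, 9 tiles were lower for Fkh1 OE in HU, 13 lower for Fkh2 OE, 9 higher for Fkh2 OE against Fkh1 OE, 3 lower at 35 min and 16 higher at 55 min. Relative to the mean of nuclear bins, zone levels were 0.172 for Fkh1 OE and 0.179 for no OE at 35 min, and 0.330 for no OE at 45 min.

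Within 20 kb, in place of 30 kb, the authors' deposited table called 4 genes higher and 3 lower for Fkh1 OE, 15 and 12 for Fkh2 OE, and 11 and 14 for Fkh2 OE against Fkh1 OE, with fewer genes entering.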
